A study of Homo sapiens with 48 samples.

Results

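RNAseq was used to follow 40 genes of glycolysis and of the response to low oxygen in PSN1 cells, a pancreatic cancer cell line, before and after the cells had become resistant to Talazoparib, an inhibitor of the DNA repair enzyme PARP. The genes were picked by symbol from the 20241 genes of the deposited table. All 40 passed the expression filter, as did 12471 genes in all (above 1 CPM in at least 3 libraries, CPM being read counts scaled to library size). There were 3 groups of 3 libraries. Parental cells carried the labels wild type, no treatment and day 0. TalaR-M cells were resistant cells held in medium with 50 nM Talazoparib and labelled 4 months. TalaR-DF cells were cells of the resistant line cultured in medium free of the drug, labelled with no treatment and day 0. By the study's methods they had been off the drug for several weeks, so the labelled day is not the time since withdrawal. The paper reports that PSN1 resistant cells off the drug for this long were almost as sensitive to Talazoparib as parental cells. Below, resistant groups and resistant libraries name TalaR-M and TalaR-DF by their shared origin and not by their sensitivity. All 3 groups grew in RPMI1640 with serum, and no other agent was named. The resistant cells came from selection in rising drug concentrations, and the sources used here do not say whether they are a clone or a pool. Time in culture and selection by the drug cannot be told apart, and neither can fewer cells with a transcript and less transcript per cell. Nothing says that the 3 replicates of a group were separate cultures, so the p-values measure the spread between these libraries, which may be technical.

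Glycolysis breaks glucose down to pyruvate. Glucose enters through transporters such as GLUT1, is trapped by hexokinase, is committed by phosphofructokinase, and pyruvate is then either reduced to lactate and exported or passed on to the mitochondria. When oxygen is short, the prolyl hydroxylases of the EGLN family stop marking the HIF alpha subunits HIF1A and EPAS1 for destruction by VHL, and the stabilised subunits pair with ARNT and switch on genes for glucose uptake, glycolysis, acid export, blood vessel growth and matrix crosslinking. Pancreatic tumours are known as poorly perfused, and hypoxia genes are widely expressed in them. HIF activity is set largely by the stability of its alpha proteins, which RNAseq does not measure.

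HIF binds a short core, ACGTG or GCGTG, in the hypoxia response elements of its target genes. The 250 bases before the RefSeq start (GRCh38.p14) were read on both strands for these letters, so that a CACGTG counts as 2 matches. A window was found for 35 of the 40 genes and 23 of them (65.7%) held a match, beside 7253 of the 14236 windows of all genes in the expression table that had one (50.9%). SLC16A1, VEGFA, NDRG1, BNIP3L and LOXL2 had no window. The windows of ALDOC, PFKFB4, CA9 and LDHA are printed here 5′ to 3′ on the strand of the gene, with the matches in capitals, where CACGT and CACGC are the cores on the other strand. They were chosen after the values were seen. ALDOC (chr17:28576896-28577145, minus strand) and PFKFB4 (chr3:48556804-48557053, minus strand) were lowered in both resistant groups, CA9 (chr9:35673678-35673927, plus strand) was the gene that a single library moved most upwards, and LDHA (chr11:18394313-18394562, plus strand) passed no test in the fit of all 9 libraries. A match describes the sequence and does not show binding.
ALDOC: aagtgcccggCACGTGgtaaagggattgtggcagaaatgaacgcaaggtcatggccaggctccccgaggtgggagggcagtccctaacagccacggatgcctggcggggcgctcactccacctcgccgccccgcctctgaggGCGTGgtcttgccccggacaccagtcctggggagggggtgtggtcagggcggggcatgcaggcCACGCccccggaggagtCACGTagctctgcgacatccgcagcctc
PFKFB4: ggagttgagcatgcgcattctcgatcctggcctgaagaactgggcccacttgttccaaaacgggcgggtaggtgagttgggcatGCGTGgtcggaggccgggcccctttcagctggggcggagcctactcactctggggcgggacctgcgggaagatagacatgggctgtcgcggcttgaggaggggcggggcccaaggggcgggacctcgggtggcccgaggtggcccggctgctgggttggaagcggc
CA9: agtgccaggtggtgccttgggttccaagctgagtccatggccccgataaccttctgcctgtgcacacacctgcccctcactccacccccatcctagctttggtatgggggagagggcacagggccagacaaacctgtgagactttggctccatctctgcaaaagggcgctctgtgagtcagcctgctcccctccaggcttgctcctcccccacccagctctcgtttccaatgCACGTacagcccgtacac
LDHA: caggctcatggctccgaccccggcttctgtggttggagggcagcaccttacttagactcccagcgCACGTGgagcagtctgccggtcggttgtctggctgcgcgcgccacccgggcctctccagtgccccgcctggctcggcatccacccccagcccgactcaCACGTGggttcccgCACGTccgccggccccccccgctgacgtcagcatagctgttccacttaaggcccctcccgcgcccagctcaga
ALDOC and LDHA held 5 matches each, and PFKFB4 and CA9 held 1 each.

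TalaR-M replicate 2 stood apart from its group before any gene was compared. Across genes with a mean above 2 log2 CPM, its values correlated at r = 0.780 with each of the other TalaR-M replicates, while those 2 correlated at 0.994 with each other (genes are not independent replicates). It differed by over 2-fold from the mean of the other two for 5431 of 12471 genes (43.5%), whereas the 6 parental and TalaR-DF libraries did so for between 0.0321% and 0.361%. Genes with short transcripts were high in it and genes with long transcripts low. The median deviation was 1.39 on the log2 scale in the shortest 10% of transcripts and -1.49 in the longest 10%. Its reads on genes above 1 CPM came to 8387755, the fewest of the 9 libraries, against between 12213605 and 14973847 in the others. Of the 40 genes, 9 were over 2-fold lower in it and 2 were over 2-fold higher. HIF1A was the lowest of these and CA9 the highest. Results are therefore also given without this library.

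**Figure D1:**
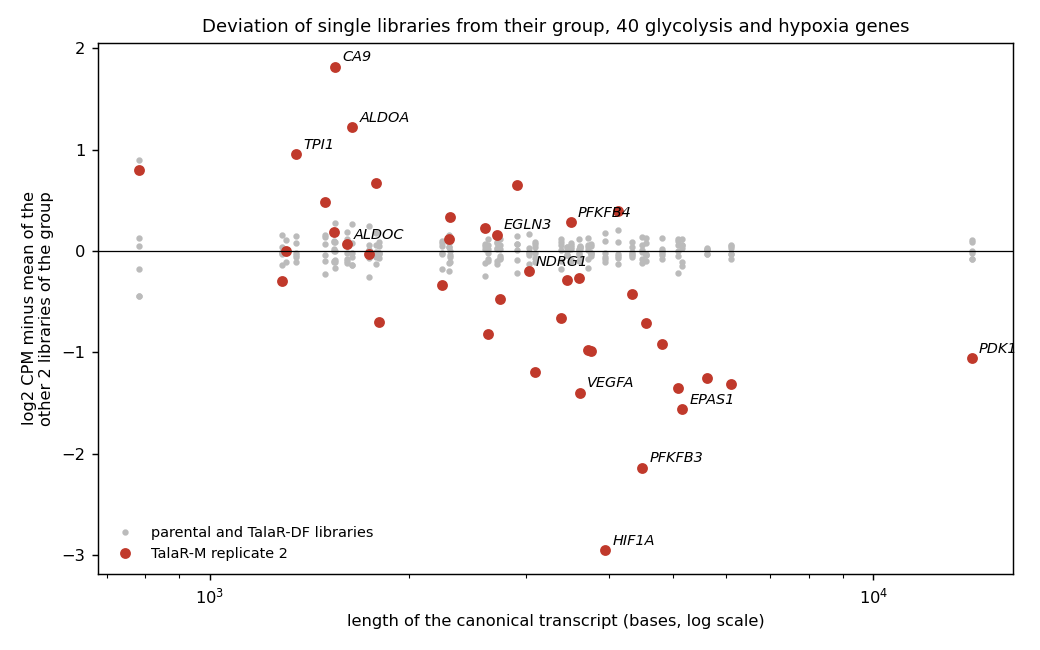
Deviation of each of the 40 genes in a single library from the mean of the other 2 libraries of its group (log2 CPM, y axis) against the length of its canonical transcript (bases, log axis). Grey points are the 6 parental and TalaR-DF libraries, which stay within 1 of 0, and red points are TalaR-M replicate 2, which reaches from -2.95 for HIF1A to 1.82 for CA9.

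Markers of the labelled cell type were present in part. The ductal and epithelial keratins KRT7, KRT8, KRT18 and KRT19 and the adhesion molecule EPCAM were expressed in all 9 libraries, while the epithelial cadherin CDH1 was at 0, which stands for at most 1 CPM. The 9 markers of this list summed to 1289, 1224 and 1259 CPM in parental cells, 1968, 5841 and 1811 CPM in TalaR-M cells and 1187, 1046 and 1078 CPM in TalaR-DF cells, with KRT8 the highest in each library. Leukocyte and endothelial markers were low. CD3E and LYZ of the leukocyte list and VWF of the endothelial list were at 0 throughout. The leukocyte list, led by CD14 in 8 libraries, summed to 14.1, 11.1 and 14.7 CPM in parental cells, 5.81, 7.11 and 4.14 CPM in TalaR-M cells and 2.55, 1.53 and 1.18 CPM in TalaR-DF cells. The endothelial list, led by PECAM1 in 5 libraries, summed to 28.8, 28.9 and 30.9 CPM, then 9.06, 5.91 and 9.05 CPM, then 3.24, 3.06 and 2.92 CPM. A gene is called changed at an adjusted p under 0.05 in limma (Benjamini-Hochberg over 12471 genes). Of 7 ductal and epithelial genes tested, KRT19 rose 6.16-fold, EPCAM rose 2.29-fold and SOX9 fell 1.90-fold in TalaR-M cells (adjusted p = 0.00233, 0.000248 and 0.0353). In TalaR-DF cells EPCAM rose 1.48-fold and KRT7 fell 2.35-fold (adjusted p = 0.0145 and 0.0426). Beside these calls, 10.3% of all genes rose and 13.2% fell in TalaR-M cells, and 6.77% rose and 11.8% fell in TalaR-DF cells. Without TalaR-M replicate 2, 4 of the 7 rose and 1 fell in TalaR-M cells (30.2% and 30% of all genes). In TalaR-DF cells 1 then rose and 2 fell (32.5% and 30.4% of all genes). CD14, PECAM1 and the receptor KDR fell in both resistant groups (adjusted p = 0.00982, 0.000334 and 0.0143 in TalaR-M cells and 0.000902, 5.45e-05 and 0.00157 in TalaR-DF cells). The leukocyte phosphatase PTPRC was at 0 in the 3 parental libraries and higher in TalaR-M replicates 1 and 3, with a log2 fold change of 0.87 in TalaR-M cells (adjusted p = 0.126) that became 1.31 once TalaR-M replicate 2 was left out (adjusted p = 0.000333). The fibroblast list, in which THY1 was at 0 and COL3A1 led, summed to 1401, 1404 and 1469 CPM in parental cells, 2988, 933 and 2912 CPM in TalaR-M cells and 903, 939 and 828 CPM in TalaR-DF cells. This sum is mostly COL3A1, and other genes of the list moved otherwise. The growth factor receptor PDGFRB was at 6.19, 6.06 and 6.19 log2 CPM in parental cells and fell 7.61-fold in TalaR-M and 9.67-fold in TalaR-DF cells (adjusted p = 0.000213 and 0.000141). The matrix proteoglycan LUM fell 11.3-fold and 3.43-fold (adjusted p = 0.000144 and 0.00704). DCN was above 1 CPM in TalaR-M cells alone and so had to differ. Of 6 proliferation genes, led by TOP2A in 8 libraries, 3 rose in TalaR-M and 4 in TalaR-DF cells against parental cells, where 10.3% and 6.77% of all genes rose, and 5 and 6 rose without TalaR-M replicate 2 (30.2% and 32.5% of all genes). Their sum was 1364, 1329 and 1323 CPM in parental cells, 2405, 1352 and 2205 CPM in TalaR-M cells and 2154, 2235 and 2261 CPM in TalaR-DF cells. The part of these differences in the results for the 40 genes was not tested.

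In TalaR-M cells many of the glycolysis and hypoxia genes were lower than in parental cells. Of the 40 genes, 24 fell and 0 rose, where 13.2% of all genes tested fell and 10.3% rose. Of these, 18 fell by at least 2-fold, against 7.72% of all genes. A fit of the parental and TalaR-M libraries alone called fewer genes, as given in the closing section. The median change was -0.98 on the log2 scale over the 40 genes and -0.09 over all genes. For 30 of the 40 genes each TalaR-M library lay below each parental library, as it did for 28.8% of all genes, and for 0 of them above, as it did for 20.9% of all genes. Without TalaR-M replicate 2, 31 fell and 2 rose (30% and 30.2% of all genes), 14 fell by at least 2-fold (7.07% of all genes), and the median was -0.80. PGAM1 and LOXL2 were the 2 that rose. Of the 24 calls, 17 held in each of the 9 fits that left out 1 library. These counts include LDHB, which was above 1 CPM in parental cells alone and so had to differ once it passed the filter. Without LDHB, 23 of 39 genes fell, 16 of the 23 calls held in each of the 9 fits, and the median was again -0.98.

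In TalaR-DF cells too, nearly all of the genes that passed the test were below parental cells. Against parental cells 15 of the 40 genes fell, beside 11.8% of all genes, and BNIP3 rose, beside 6.77% of all genes. The fall was at least 2-fold for 8 genes (7.49% of all genes). The median change was -0.45, against 0.01 over all genes. TalaR-M replicate 2 enters this comparison through the shared estimate of spread alone, and without it 31 genes fell (30.4% of all genes), 3 rose (HK1, PGAM1 and BNIP3, against 32.5% of all genes) and 10 fell by at least 2-fold (8.63% of all genes). The 18 genes that gained a call in this way, among them HK2, PFKM, PFKP, PGK1, PDK1, CA9, CA12, HIF1A and EPAS1, have the same fold change in both fits. Leaving out any 1 of the parental replicates, or TalaR-DF replicate 2 or 3, brought the 16 calls to 10, the lowest of the 9 such fits. SLC16A3, VEGFA, EGLN1, P4HA2, LOX and LOXL2 were the genes that lost their call in at least 1 of them. The comparisons with parental cells share the parental libraries, so their likeness is not independent evidence. Here too LDHB is counted, and without it 14 of 39 genes fell.

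TalaR-M and TalaR-DF cells were also compared with each other. By the paper these groups differed both in the presence of the drug and in sensitivity to it. In TalaR-M cells 8 of the 40 genes were lower than in TalaR-DF cells and 2 were higher, ADM and LOXL2, while 4.25% of all genes were lower and 7.79% higher. A fit of the TalaR-M and TalaR-DF libraries alone called fewer genes, as given in the closing section. At least 2-fold lower were 6 genes (1.64% of all genes), and at least 2-fold higher was ADM (5.29% of all genes). The median difference was -0.37, against -0.09 over all genes. Without TalaR-M replicate 2, 22 genes were lower (25.3% of all genes) and 8 higher (23.5%), so that 20 genes gained a call, and the estimates of ALDOA, ANKRD37, HIF1A, EPAS1 and LOX turned direction. At least 2-fold lower were 6 (1.4% of all genes) and at least 2-fold higher was 1, LOXL2 (6.96%). The 10 calls became 5, 6 and 5 without TalaR-DF replicate 1, 2 and 3. PFKFB4, ALDOC, ADM, NDRG1 and BNIP3 kept their call in all 9 fits that left out 1 library, and HK2, PDK1, CA12, EGLN3 and LOXL2 did not.

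**Figure D2:**
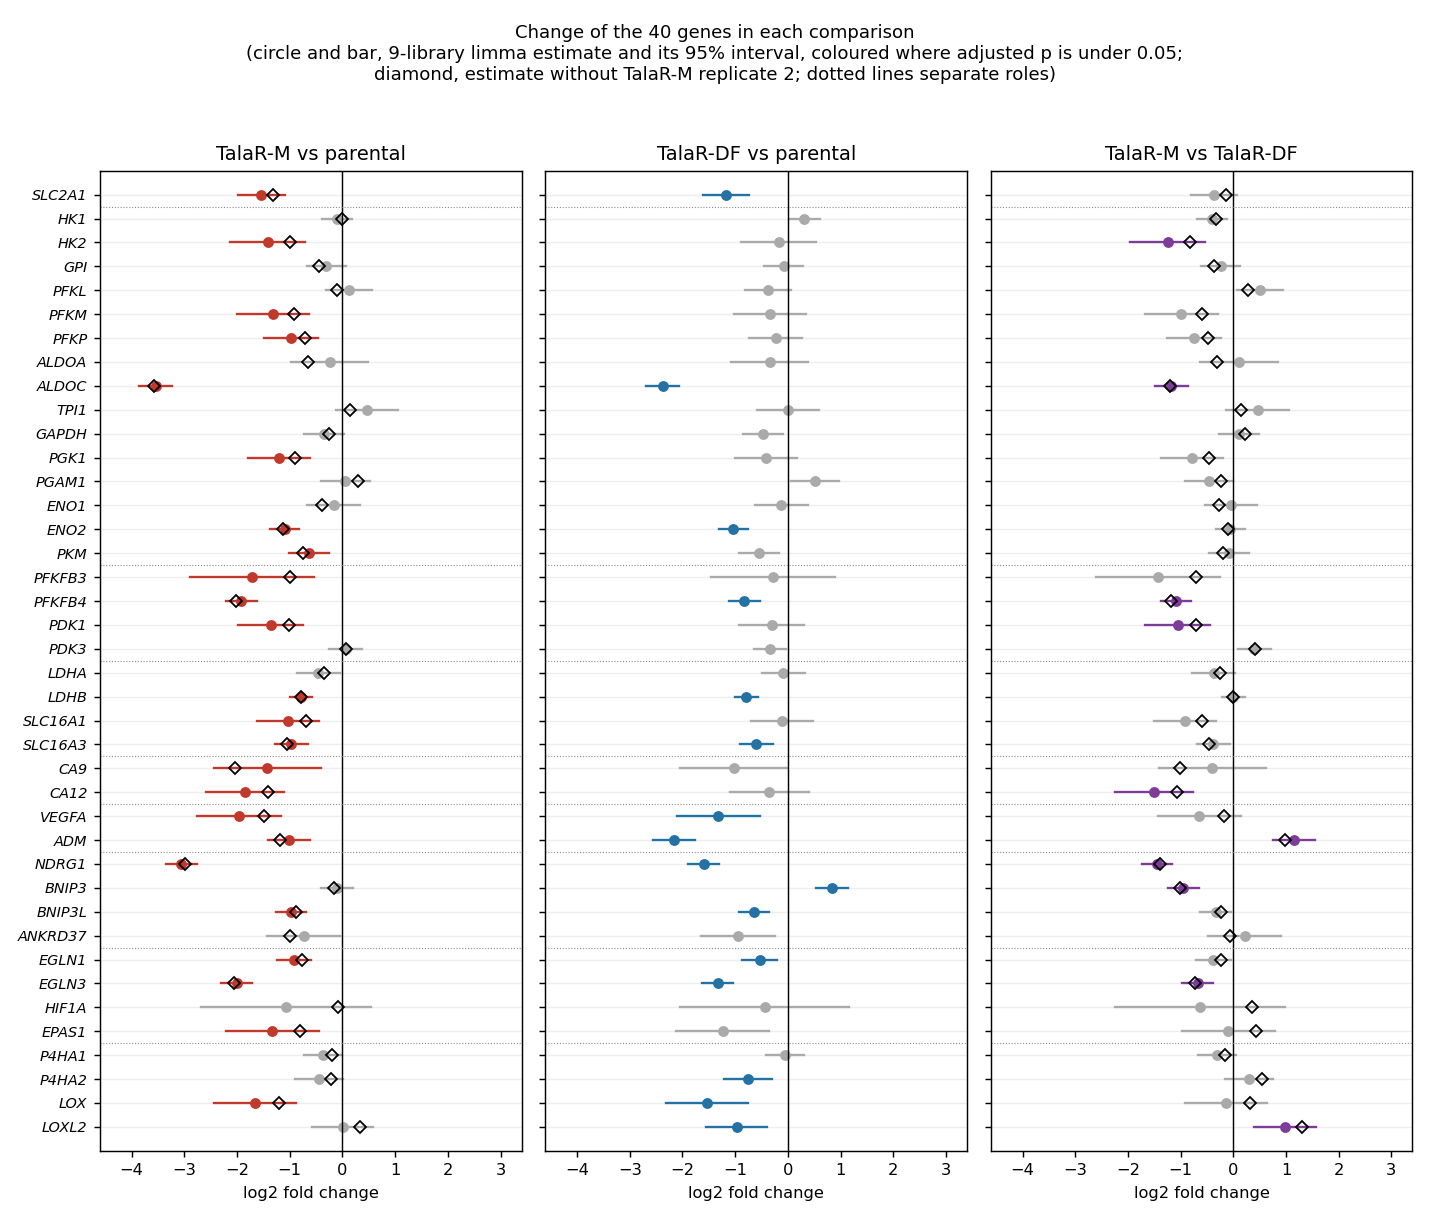
Log2 fold change of each of the 40 genes (x axis) in each comparison, ordered by role. Circles and bars are the estimates of the 9-library limma fit with 95% intervals, coloured where the adjusted p was under 0.05, and open diamonds leave out TalaR-M replicate 2. In the first panel 24 circles are coloured, all to the left of 0, and ALDOC and NDRG1 lie farthest left.

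**Figure D3:**
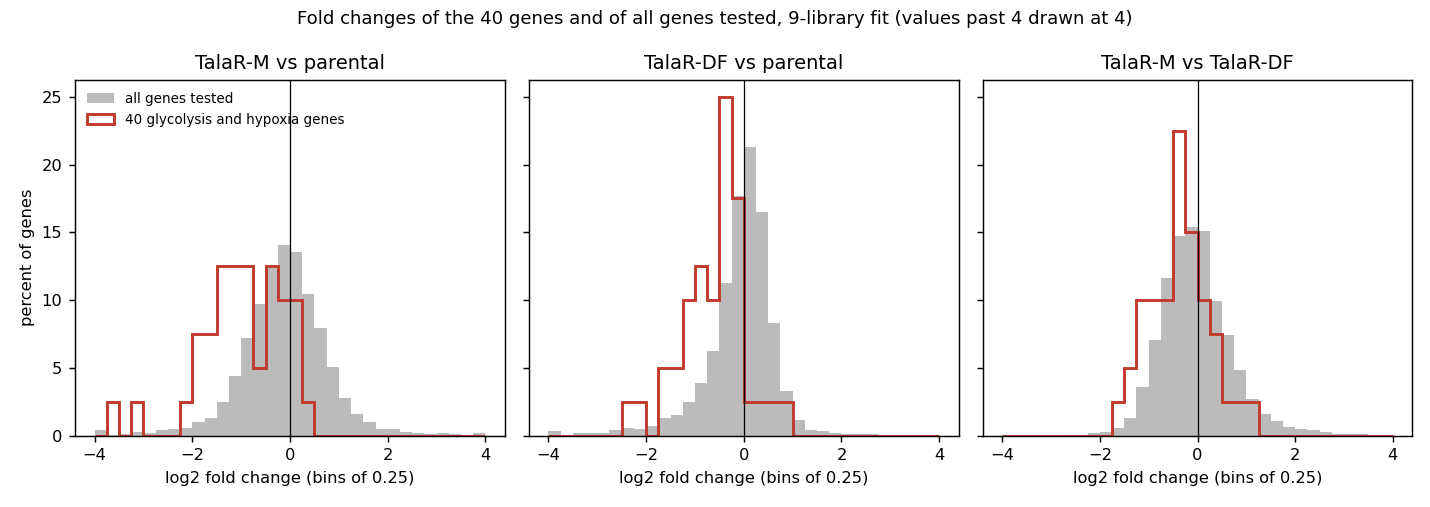
Percent of genes (y axis) in bins of log2 fold change (x axis) for all 12471 genes tested (grey) and for the 40 glycolysis and hypoxia genes (red outline) in each comparison. The red outline lies to the left of the grey in the comparisons with parental cells, with medians of -0.98 and -0.45 against -0.09 and 0.01.

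Glucose uptake is represented by SLC2A1, which encodes the transporter GLUT1, and its transcript fell in both TalaR-M and TalaR-DF cells. SLC2A1 stood at 8.40, 8.27 and 8.35 log2 CPM in parental cells (replicates 1 to 3 in this order here and throughout), 7.07, 6.37 and 6.98 in TalaR-M cells and 7.24, 7.21 and 7.05 in TalaR-DF cells. Both resistant groups lay below the parental group without overlap and overlapped with each other. It fell 2.90-fold in TalaR-M cells (log2 fold change -1.54 ± 0.19 (SE), adjusted p = 0.000695 in limma) and 2.26-fold in TalaR-DF cells (-1.17 ± 0.19, adjusted p = 0.00355). The difference between the resistant groups was -0.36, with a 95% interval from -0.80 to 0.07 (adjusted p = 0.23). Without TalaR-M replicate 2 the fall in TalaR-M cells was 1.32 on the log2 scale and the difference between the resistant groups was -0.14 (adjusted p = 0.121).

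Of the 15 glycolytic enzymes, 7 fell in TalaR-M cells (HK2, PFKM, PFKP, ALDOC, PGK1, ENO2 and PKM), 2 fell in TalaR-DF cells (ALDOC and ENO2) and 0 rose in either. Beside these, 13.2% and 11.8% of all genes fell and 10.3% and 6.77% rose. With TalaR-M replicate 2 left out, 10 fell and 1 rose in TalaR-M cells and 10 fell and 2 rose in TalaR-DF cells. In that fit 30% and 30.4% of all genes fell and 30.2% and 32.5% rose. In the fit of all libraries the brain-type aldolase ALDOC changed the most of all 40 genes in both comparisons with parental cells. Its values were 6.08, 5.99 and 5.93 log2 CPM in parental cells, 2.35, 2.5 and 2.51 in TalaR-M cells and 3.75, 3.55 and 3.58 in TalaR-DF cells. The 3 groups were fully separate, with TalaR-DF cells in between, and TalaR-M replicate 2 lay with its group. ALDOC fell 11.7-fold in TalaR-M cells (log2 fold change -3.55 ± 0.14, adjusted p = 8.50e-07) and 5.18-fold in TalaR-DF cells (-2.37 ± 0.14, adjusted p = 9.84e-06). It was 2.25-fold lower in TalaR-M than in TalaR-DF cells (adjusted p = 0.00107). The size of these falls depended on the processing. Over the alternatives tried, the log2 fold change of ALDOC ranged from -3.58 to -2.42 in TalaR-M and from -2.44 to -1.82 in TalaR-DF cells. That of NDRG1 in TalaR-M cells stayed between -3.14 and -2.91. Where ALDOC was at -2.42, NDRG1 therefore changed more. The neuron-type enolase ENO2 was at 6.82, 6.93 and 6.95 in parental cells, 5.75, 5.88 and 5.79 in TalaR-M cells and 5.97, 5.89 and 5.73 in TalaR-DF cells. Both resistant groups were below the parental group and overlapped with each other. ENO2 fell 2.13-fold (adjusted p = 0.000338) and 2.05-fold (adjusted p = 0.00057), and the difference between the resistant groups was -0.06, with an interval from -0.33 to 0.22 (adjusted p = 0.752).

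Hexokinase 2, HK2, the hexokinase that many tumours induce, was lower in TalaR-M cells than in either other group. It was at 8.24, 8.22 and 8.25 log2 CPM in parental cells, 7.25, 5.99 and 7.23 in TalaR-M cells and 8.07, 8.08 and 8.04 in TalaR-DF cells. The 3 groups did not overlap, but TalaR-DF lay close to parental. HK2 fell 2.67-fold in TalaR-M cells (-1.41 ± 0.31, adjusted p = 0.0125) and was 2.36-fold lower there than in TalaR-DF cells (adjusted p = 0.0372), and the change in TalaR-DF cells was -0.17 (adjusted p = 0.802). Without TalaR-M replicate 2 these became -1.0, -0.82 and -0.17, all past the threshold. HK1, the widely expressed hexokinase, stood at 8.06, 8.05 and 8.03 in parental cells, 8.08, 7.78 and 7.99 in TalaR-M cells and 8.35, 8.30 and 8.44 in TalaR-DF cells. TalaR-DF cells were highest without overlap, yet HK1 passed no test in the 9 libraries (adjusted p = 0.582 and 0.13 for the TalaR-M and TalaR-DF groups against parental cells, and 0.0698 between the resistant groups). Without TalaR-M replicate 2 HK1 rose by 0.32 in TalaR-DF cells (adjusted p = 0.000421) and was lower in TalaR-M than in TalaR-DF cells (adjusted p = 0.00124).

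Phosphofructokinase is built from the liver, muscle and platelet subunits PFKL, PFKM and PFKP. PFKM was at 7.53, 7.41 and 7.51 log2 CPM in parental cells, 6.61, 5.36 and 6.51 in TalaR-M cells and 7.20, 7.14 and 7.10 in TalaR-DF cells, and PFKP at 8.93, 8.84 and 8.90, then 8.21, 7.37 and 8.16, then 8.74, 8.65 and 8.59. The 3 groups were separate for both. In TalaR-M cells PFKM fell 2.5-fold (adjusted p = 0.0143) and PFKP 1.97-fold (adjusted p = 0.0142), and both calls were lost without parental replicate 1 or 3 (adjusted p up to 0.0569 and 0.0577). Their changes in TalaR-DF cells were -0.34 and -0.23 (adjusted p = 0.544 and 0.581). PFKL was at 7.99, 7.92 and 8.03 in parental cells, 7.86, 8.53 and 7.91 in TalaR-M cells and 7.70, 7.64 and 7.46 in TalaR-DF cells. TalaR-M replicate 2 alone lay above the parental group, and PFKL passed no test in the 9-library fit. Without that library it was lower in TalaR-DF cells than in parental cells by a log2 fold change of -0.38 (adjusted p = 0.000376) and higher in TalaR-M than in TalaR-DF cells by 0.28 (adjusted p = 0.00801). Phosphoglycerate kinase, PGK1, which makes the first ATP of the pathway, was at 11.25, 11.22 and 11.23 in parental cells, 10.46, 9.42 and 10.23 in TalaR-M cells and 10.89, 10.75 and 10.78 in TalaR-DF cells. The groups did not overlap. PGK1 fell 2.3-fold in TalaR-M cells (adjusted p = 0.011), or by 0.89 on the log2 scale without TalaR-M replicate 2, and its change in TalaR-DF cells was -0.42 (adjusted p = 0.337).

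The remaining enzymes changed by less than 2-fold in each comparison. GAPDH, GPI, TPI1, PGAM1, ALDOA and ENO1 had log2 fold changes between -0.35 and 0.47 in TalaR-M cells and between -0.47 and 0.51 in TalaR-DF cells, and 0 of these 6 passed the test in any comparison of the 9 libraries. Without TalaR-M replicate 2, GPI fell by 0.44 and PGAM1 rose by 0.29 in TalaR-M cells (adjusted p = 0.00101 and 0.00391). In TalaR-DF cells GAPDH fell by 0.47, ALDOA fell by 0.35 and PGAM1 rose by 0.51 in that fit (adjusted p = 0.00145, 0.00689 and 2.37e-05). ALDOA, the main aldolase, stood at 11.05, 10.95 and 10.98 log2 CPM in parental cells, 10.42, 11.57 and 10.26 in TalaR-M cells and 10.83, 10.56 and 10.56 in TalaR-DF cells. ENO1, the main enolase, stood at 11.60, 11.53 and 11.56, then 11.25, 11.84 and 11.09, then 11.56, 11.35 and 11.40. In both genes TalaR-M replicate 2 was the highest of the 9 libraries and the other TalaR-M replicates were the lowest. Without it they fell by 0.65 and 0.39 in TalaR-M cells (adjusted p = 0.000229 and 0.0083). Pyruvate kinase, PKM, fell 1.55-fold in TalaR-M cells (adjusted p = 0.027), a call that was lost in 7 of the 9 fits leaving out 1 library, and its change in TalaR-DF cells was -0.55 (adjusted p = 0.0536). Several of these genes, among them GAPDH, ALDOA, TPI1, ENO1, PGK1, PGAM1, PKM and LDHA, have near-identical copies elsewhere in the genome, and how reads shared with such copies were counted is not given in the sources used here, so their levels are uncertain.

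Enzymes that set the flux without belonging to the chain were also lower. PFKFB4 and PFKFB3 make and break the sugar bisphosphate that activates phosphofructokinase. PFKFB4 was at 7.29, 7.19 and 7.28 log2 CPM in parental cells, 5.26, 5.53 and 5.23 in TalaR-M cells and 6.48, 6.44 and 6.37 in TalaR-DF cells. The 3 groups were separate, with TalaR-DF in between. PFKFB4 fell 3.78-fold in TalaR-M cells (-1.92 ± 0.13, adjusted p = 1.58e-05) and 1.77-fold in TalaR-DF cells (adjusted p = 0.00251), and was 2.13-fold lower in TalaR-M than in TalaR-DF cells (adjusted p = 0.00103). PFKFB3 was at 5.96, 6.06 and 6.02 in parental cells, 5.0, 2.88 and 5.04 in TalaR-M cells and 5.82, 5.73 and 5.65 in TalaR-DF cells. TalaR-M replicate 2 was far below the rest. The fall of PFKFB3 in TalaR-M cells was 1.71 on the log2 scale with it and 1.0 without it (adjusted p = 0.0442 and 3.04e-07), and the first of these calls was lost without any 1 of the parental or TalaR-DF libraries (adjusted p up to 0.125).

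Pyruvate dehydrogenase kinases turn off the entry of pyruvate into the mitochondria. PDK1, a member that HIF induces, was at 6.68, 6.57 and 6.62 log2 CPM in parental cells. It was at 5.61, 4.56 and 5.62 in TalaR-M cells and 6.26, 6.30 and 6.39 in TalaR-DF cells. The groups did not overlap and TalaR-M was lowest. PDK1 fell 2.57-fold in TalaR-M cells (adjusted p = 0.00783) and was 2.07-fold lower there than in TalaR-DF cells (adjusted p = 0.0406), which became falls of 1.01 and 0.70 on the log2 scale without TalaR-M replicate 2. The change in TalaR-DF cells was -0.31 (adjusted p = 0.542). PDK3 stayed within 4.23 to 4.78 log2 CPM over all 9 libraries and passed no test in the 9-library fit. Without TalaR-M replicate 2 it fell by 0.34 in TalaR-DF cells (adjusted p = 0.00807) and was higher in TalaR-M than in TalaR-DF cells (adjusted p = 0.00709).

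Both lactate carriers fell in TalaR-M cells. SLC16A3 encodes the lactate exporter MCT4 and was at 8.81, 8.68 and 8.79 log2 CPM in parental cells, 7.73, 7.94 and 7.69 in TalaR-M cells and 8.31, 8.18 and 8.0 in TalaR-DF cells. Its 3 groups were separate. SLC16A3 fell by 0.97 in TalaR-M cells (adjusted p = 0.00133), a fall of 1.05 once TalaR-M replicate 2 was left out, and by 0.60 in TalaR-DF cells (adjusted p = 0.0172, up to 0.0782 when 1 parental library or TalaR-DF replicate 2 or 3 was left out). SLC16A1, which encodes the bidirectional carrier MCT1, was at 8.81, 8.75 and 8.76 in parental cells, 8.15, 7.09 and 7.99 in TalaR-M cells and 8.62, 8.64 and 8.70 in TalaR-DF cells. TalaR-M cells were below both other groups, which lay close together. SLC16A1 fell 2.04-fold in TalaR-M cells (adjusted p = 0.0216, up to 0.0771 without 1 parental library), or by 0.70 on the log2 scale without TalaR-M replicate 2, and its change in TalaR-DF cells was -0.11 (adjusted p = 0.847). LDHA, the lactate dehydrogenase subunit that HIF induces, was at 11.87, 11.82 and 11.82 in parental cells, 11.63, 11.16 and 11.36 in TalaR-M cells and 11.81, 11.63 and 11.82 in TalaR-DF cells, and passed no test in the 9-library fit. Without TalaR-M replicate 2 LDHA fell by 0.35 in TalaR-M cells (adjusted p = 0.028). LDHB, its partner subunit, gave 23 reads in each parental library (0.71, 0.79 and 0.86 log2 CPM) and was at 0 in all 6 resistant libraries. LDHB was at least 1.73-fold lower there against a floor of 1 CPM, but it passed the expression filter through the parental libraries alone and so had to differ.

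Both carbonic anhydrases of the cell surface, which handle acid outside the cell, were lower in TalaR-M cells, but with opposite behaviour of TalaR-M replicate 2. CA9, a standard marker of hypoxic tumour cells, was at 8.75, 8.64 and 8.69 log2 CPM in parental cells, 6.71, 8.48 and 6.61 in TalaR-M cells and 7.85, 7.59 and 7.55 in TalaR-DF cells. TalaR-M replicate 2 was close to the parental level, while replicates 1 and 3 were the lowest of all. The log2 change in TalaR-M cells was -1.43 with it (adjusted p = 0.050, just under the threshold and over it in 8 of the 9 fits leaving out 1 library) and -2.03 without it (adjusted p = 3.49e-09). In TalaR-DF cells the change was -1.03 (adjusted p = 0.164 with TalaR-M replicate 2 in the spread and 4.13e-07 without). CA12 was at 7.47, 7.47 and 7.53 in parental cells, 6.09, 4.76 and 6.04 in TalaR-M cells and 7.17, 7.08 and 7.16 in TalaR-DF cells. Here the same library was the lowest. CA12 fell 3.62-fold in TalaR-M cells (adjusted p = 0.00424) and was 2.84-fold lower there than in TalaR-DF cells (adjusted p = 0.0206), or by 1.42 and 1.07 on the log2 scale without TalaR-M replicate 2. The change in TalaR-DF cells was -0.35 (adjusted p = 0.566).

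**Figure D4:**
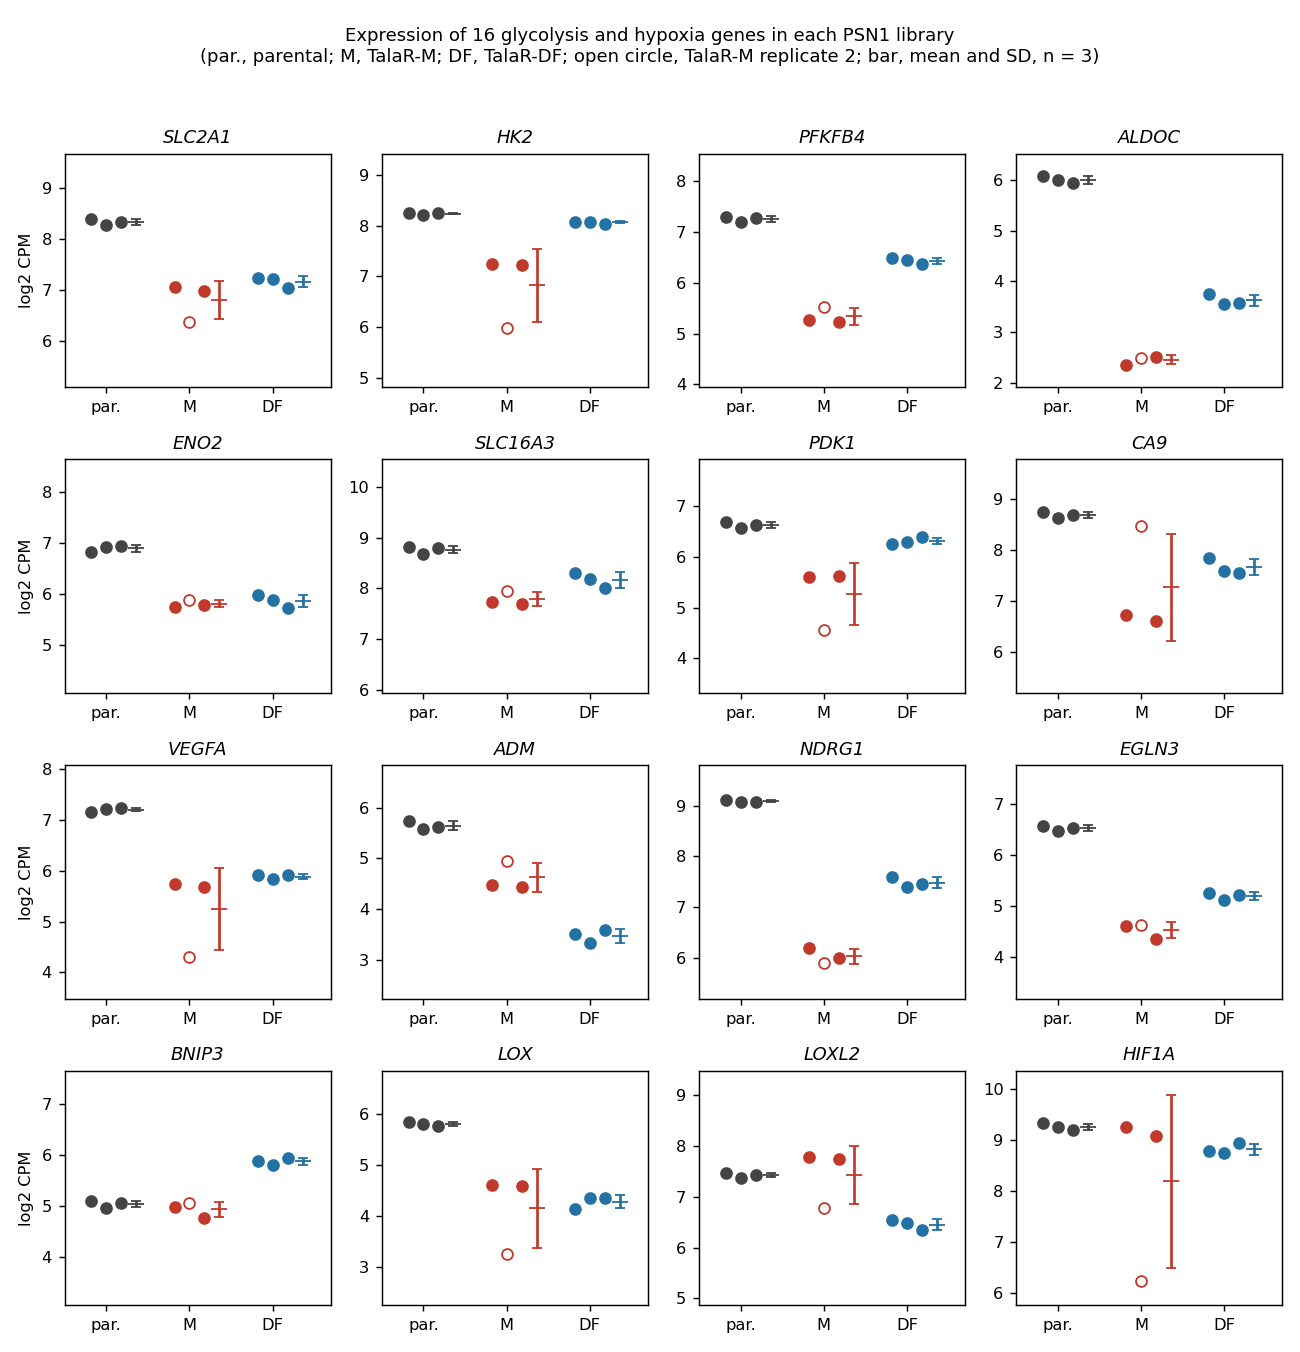
Log2 CPM (y axis) of 16 of the genes in each library of parental (par.), TalaR-M (M) and TalaR-DF (DF) cells. Points are libraries, open circles are TalaR-M replicate 2 and bars are the mean and SD (n = 3). ALDOC, PFKFB4, NDRG1 and EGLN3 are highest in parental and lowest in TalaR-M cells, with no overlap between groups, whereas CA9 and HIF1A show the open circle far from the other TalaR-M points.

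Both secreted vascular factors fell in TalaR-M and in TalaR-DF cells. VEGFA, the main signal for blood vessel growth, was at 7.17, 7.22 and 7.23 log2 CPM in parental cells, 5.74, 4.31 and 5.69 in TalaR-M cells and 5.91, 5.83 and 5.92 in TalaR-DF cells. Both resistant groups lay below the parental group, and TalaR-M below TalaR-DF. VEGFA fell 3.9-fold in TalaR-M cells (adjusted p = 0.00432), or by 1.5 on the log2 scale without TalaR-M replicate 2, and 2.5-fold in TalaR-DF cells (adjusted p = 0.0308, up to 0.102 when a parental or TalaR-DF library was left out). The difference between the resistant groups was -0.64, with an interval from -1.43 to 0.15, and became -0.18 without TalaR-M replicate 2 (adjusted p = 0.0302). ADM, the vessel-relaxing peptide adrenomedullin, was at 5.74, 5.58 and 5.62 in parental cells, 4.49, 4.95 and 4.45 in TalaR-M cells and 3.52, 3.33 and 3.58 in TalaR-DF cells. Its 3 groups were separate, and TalaR-DF cells were the lowest. ADM fell 2.03-fold in TalaR-M cells (adjusted p = 0.00376) and 4.5-fold in TalaR-DF cells (adjusted p = 6.81e-05), and was 2.22-fold higher in TalaR-M than in TalaR-DF cells (adjusted p = 0.00424), or 0.99 on the log2 scale without TalaR-M replicate 2.

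Among the other hypoxia-induced genes of the 40, NDRG1, a stress-response gene used as a marker of hypoxia, was at 9.11, 9.07 and 9.08 log2 CPM in parental cells, 6.20, 5.90 and 6.0 in TalaR-M cells and 7.60, 7.40 and 7.46 in TalaR-DF cells. The groups were far apart, with TalaR-DF in between and TalaR-M replicate 2 close to its group. NDRG1 fell 8.31-fold in TalaR-M cells (-3.06 ± 0.13, adjusted p = 1.28e-06) and 3.03-fold in TalaR-DF cells (-1.6 ± 0.13, adjusted p = 6.0e-05), and was 2.74-fold lower in TalaR-M than in TalaR-DF cells (adjusted p = 0.000238). BNIP3 and BNIP3L are related mitochondrial proteins that mark mitochondria for removal. BNIP3 was at 5.09, 4.97 and 5.05 in parental cells, 4.98, 5.05 and 4.76 in TalaR-M cells and 5.87, 5.81 and 5.94 in TalaR-DF cells. TalaR-DF cells were above both other groups, which overlapped. BNIP3 rose 1.79-fold in TalaR-DF cells (adjusted p = 0.00275), was 1.93-fold lower in TalaR-M than in TalaR-DF cells (adjusted p = 0.00259), and differed by -0.11 between TalaR-M and parental cells, with an interval from -0.40 to 0.19. BNIP3L fell by 0.97 in TalaR-M cells and by 0.64 in TalaR-DF cells (adjusted p = 0.000854 and 0.00895). ANKRD37, a small ankyrin-repeat protein, was weakly expressed, at 31, 34 and 31 reads in parental cells and 16, 15 and 17 in TalaR-M cells. TalaR-DF replicate 1 held 26 reads, with the other TalaR-DF libraries at or under 1 CPM. Scaled to library size, ANKRD37 was at 1.13, 1.33 and 1.28 log2 CPM in parental cells and 0.13, 1.05 and 0.36 in TalaR-M cells. TalaR-M replicate 2, the library with the fewest reads, thus lay near the parental level. The change of ANKRD37 in TalaR-M cells was -0.73 with all libraries (adjusted p = 0.117) and -1.0 when TalaR-M replicate 2 was left out (adjusted p = 0.00385).

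Both oxygen-sensing hydroxylases among the 40 fell in TalaR-M and in TalaR-DF cells. EGLN3, which HIF induces, was at 6.58, 6.46 and 6.54 log2 CPM in parental cells. It was at 4.59, 4.63 and 4.34 in TalaR-M cells and 5.26, 5.11 and 5.22 in TalaR-DF cells. The 3 groups were separate. EGLN3 fell 4.02-fold in TalaR-M cells (adjusted p = 1.52e-05) and 2.51-fold in TalaR-DF cells (adjusted p = 0.000212), and was 1.6-fold lower in TalaR-M than in TalaR-DF cells (adjusted p = 0.0129, up to 0.0628 without 1 TalaR-DF library). EGLN1, the main hydroxylase, was at 7.04, 7.02 and 7.07 in parental cells, 6.29, 5.84 and 6.24 in TalaR-M cells and 6.57, 6.48 and 6.47 in TalaR-DF cells. It was lowest in TalaR-M cells, with no overlap between groups. EGLN1 fell by 0.92 in TalaR-M cells (adjusted p = 0.00242) and by 0.54 in TalaR-DF cells (adjusted p = 0.0334, up to 0.116 when a parental or TalaR-DF library was left out).

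The values of the HIF alpha subunits in TalaR-M cells depended on TalaR-M replicate 2. HIF1A was at 9.33, 9.25 and 9.20 log2 CPM in parental cells, 9.26, 6.22 and 9.08 in TalaR-M cells and 8.78, 8.74 and 8.94 in TalaR-DF cells. The other TalaR-M replicates lay at the parental level. HIF1A changed by -1.07 in TalaR-M cells with an interval from -2.68 to 0.53 (adjusted p = 0.288). Leaving out TalaR-M replicate 2 made this -0.09 (adjusted p = 0.359). In TalaR-DF cells its change was -0.44 (adjusted p = 0.771, and 0.000241 without that library). EPAS1, which encodes the other alpha subunit, was at 7.12, 7.0 and 7.12 in parental cells, 6.33, 4.70 and 6.21 in TalaR-M cells and 5.92, 5.74 and 5.85 in TalaR-DF cells. Both resistant groups were below the parental group. EPAS1 fell by 1.33 in TalaR-M cells (adjusted p = 0.0379, a call lost without any 1 of the parental or TalaR-DF libraries), or by 0.81 without TalaR-M replicate 2, and its change in TalaR-DF cells was -1.24 (adjusted p = 0.0585, and 2.12e-08 without that library). Between the resistant groups the difference was -0.63 for HIF1A and -0.09 for EPAS1 with the library and 0.35 and 0.43 without it (adjusted p = 0.00395 and 0.000498 without it), so the direction turned on that library.

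Genes of collagen modification close the set. LOX, which crosslinks collagen, was at 5.85, 5.81 and 5.78 log2 CPM in parental cells, 4.60, 3.25 and 4.59 in TalaR-M cells and 4.13, 4.36 and 4.35 in TalaR-DF cells. Both resistant groups were below the parental group and overlapped. LOX fell 3.17-fold in TalaR-M cells (adjusted p = 0.00895), or by 1.21 on the log2 scale without TalaR-M replicate 2, and 2.89-fold in TalaR-DF cells (adjusted p = 0.0155, up to 0.0637 when a parental or TalaR-DF library was left out). Its relative LOXL2 was at 7.47, 7.38 and 7.44 in parental cells, 7.78, 6.78 and 7.74 in TalaR-M cells and 6.54, 6.48 and 6.34 in TalaR-DF cells. TalaR-DF cells were the lowest, and TalaR-M replicates 1 and 3 were above the parental group. LOXL2 fell by 0.97 in TalaR-DF cells (adjusted p = 0.031, up to 0.113 when a parental or TalaR-DF library was left out) and was 1.97-fold higher in TalaR-M than in TalaR-DF cells (adjusted p = 0.0428, over the threshold in 8 of the 9 fits leaving out 1 library). In TalaR-M against parental cells LOXL2 changed by 0.00 with TalaR-M replicate 2 and rose by 0.33 without it (adjusted p = 0.00124). Of the collagen prolyl hydroxylases, P4HA2 fell by 0.75 in TalaR-DF cells (adjusted p = 0.0332, up to 0.122 when a parental or TalaR-DF library was left out) and P4HA1 passed no test in the 9-library fit.

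Within enzyme families the levels of the members were compared per kilobase of the canonical transcript, as shares of the family in each library. HK2 made up 42.1%, 41.8% and 42.7% of HK1 and HK2 together in parental cells, 26.5%, 15.6% and 27.4% in TalaR-M cells and 34.5%, 35.5% and 32.7% in TalaR-DF cells. The balance lay with HK1 in all 9 libraries and most of all in TalaR-M cells. ALDOC held 3.15%, 3.16% and 2.98% of ALDOA and ALDOC in parental cells, 0.378%, 0.190% and 0.471% in TalaR-M cells and 0.750%, 0.786% and 0.800% in TalaR-DF cells. ENO2 held 2.76%, 3.10% and 3.09% of ENO1 and ENO2, then 1.69%, 1.24% and 1.93%, then 1.59%, 1.73% and 1.5%. Both genes were minor members throughout, with shares lower in each resistant library than in each parental library. PFKL made up 26.2%, 26.7% and 27.1% of phosphofructokinase in parental cells, 35.7%, 62.6% and 37.3% in TalaR-M cells and 25.3%, 25.8% and 24.0% in TalaR-DF cells, and PFKP was the largest subunit in each library except TalaR-M replicate 2. LDHA was over 99.9% of lactate dehydrogenase in all 9 libraries. SLC16A3 made up 59.1%, 58.0% and 59.6% of the 2 lactate carriers in parental cells, 51.9%, 72.3% and 53.9% in TalaR-M cells and 53.8%, 51.1% and 47.0% in TalaR-DF cells. PDK1 made up 34.0%, 35.0% and 30.7% of PDK1 and PDK3, then 18.6%, 10.3% and 19.5%, then 32.7%, 32.9% and 35.5%, a share that depends on the annotated PDK1 transcript of 14072 bases. Several shares in TalaR-M replicate 2 lay apart from those in the other TalaR-M libraries, and no test was made on shares.

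**Figure D5:**
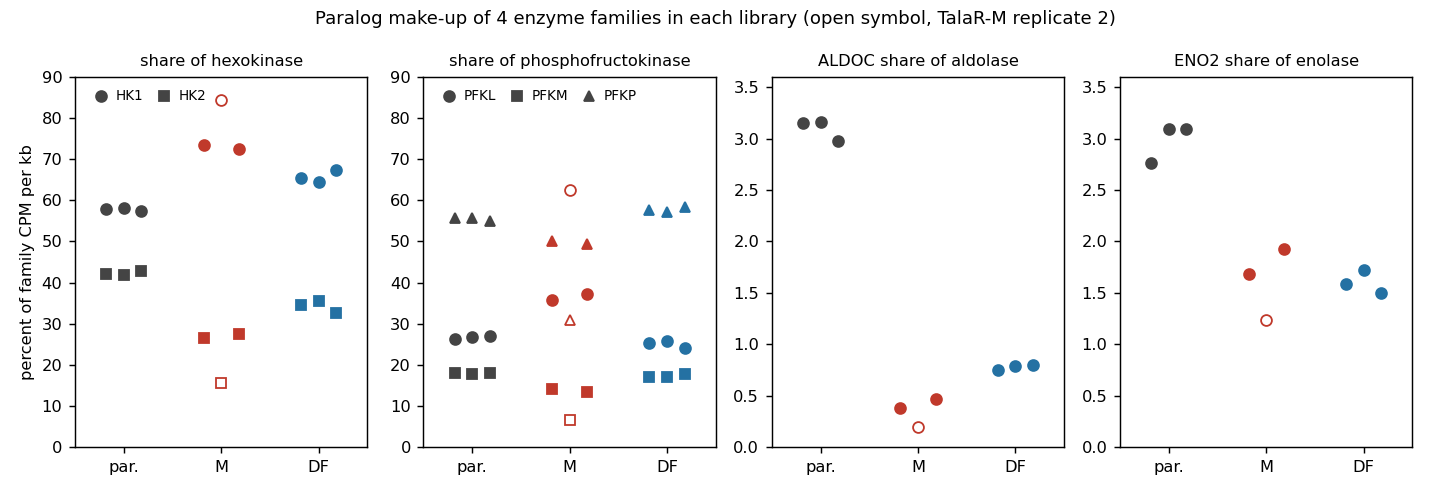
Share of a family's CPM per kilobase (percent, y axis) held by each member in each library of parental (par.), TalaR-M (M) and TalaR-DF (DF) cells, with open symbols for TalaR-M replicate 2. The HK2 share is lowest in TalaR-M cells (15.6% to 27.4%, against 41.8% to 42.7% in parental cells), and the ALDOC and ENO2 shares are below the parental points in each resistant library.

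Many hypoxia-induced genes outside the 40 were lower as well. Of 33 listed, 30 were tested. In TalaR-M cells 17 fell and 0 rose, with 16 falls of at least 2-fold and a median of -1.06, beside 13.2% of all genes that fell and 7.72% that fell by at least 2-fold. In TalaR-DF cells 13 fell and 0 rose, with 7 falls of at least 2-fold and a median of -0.70, beside 11.8% and 7.49% of all genes. Between the resistant groups 3 were lower in TalaR-M cells (MXI1, HILPDA and SLC6A8) and 0 higher, beside 4.25% and 7.79% of all genes. NDUFA4L2, a mitochondrial subunit that HIF induces, was at 5.05, 4.72 and 4.89 log2 CPM in parental cells and at 0 in all 6 resistant libraries, so that its fall of 4.89 on the log2 scale is a lower bound at 1 CPM. It passed the filter through the parental libraries alone and so had to differ, and without it 16 of the other 29 genes fell in TalaR-M cells, against 12 in TalaR-DF cells. TMEM45A, a membrane protein, fell by 3.46 in TalaR-M and 3.16 in TalaR-DF cells (adjusted p = 4.73e-06 and 1.07e-05), and the clock repressor BHLHE41 by 2.64 and 3.14 (adjusted p = 0.000363 and 0.000163). PPFIA4, a liprin, fell by 2.42 and fell by 1.74 (adjusted p = 0.000142 and 0.00116). ANGPTL4, a secreted lipase inhibitor, fell by 1.89 and fell by 2.39 (adjusted p = 0.0108 and 0.00417). Without TalaR-M replicate 2, 24 fell and 1, the transferrin receptor TFRC, rose in TalaR-M cells, and 15 fell by at least 2-fold. In TalaR-DF cells 24 fell and 2 rose in that fit. Beside these stood 30% and 30.4% of all genes that fell, and 30.2% and 32.5% that rose. Between TalaR-M and TalaR-DF cells, 13 were then lower and 6 higher in TalaR-M cells, beside 25.3% and 23.5% of all genes.

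Glycolysis and glycogen genes outside the 40 were called in both directions in TalaR-M and in TalaR-DF cells. In the fit of all 9 libraries the shares were not far from those of all genes. Of 32 listed, 26 were tested. In TalaR-M cells 5 fell (SLC2A3, PGM1, GYS1, GBE1 and PDK4) and 4 rose (SLC2A6, SLC2A8, TIGAR and MPC1), with a median of -0.15, beside 13.2% and 10.3% of all genes. In TalaR-DF cells 4 fell (SLC2A3, PGM1, GYS1 and PYGB) and TIGAR rose, with a median of -0.02, beside 11.8% and 6.77% of all genes. When TalaR-M replicate 2 was left out, 8 fell and 6 rose in TalaR-M cells, beside 30% and 30.2% of all genes, and 12 fell and 10 rose in TalaR-DF cells, beside 30.4% and 32.5% of all genes. SLC2A3, the high-affinity transporter GLUT3, was at 7.31, 7.26 and 7.26 log2 CPM in parental cells, 5.12, 4.31 and 4.91 in TalaR-M cells and 5.51, 5.41 and 5.54 in TalaR-DF cells, without overlap between groups. Its log2 fold change was -2.5 in TalaR-M and -1.79 in TalaR-DF cells (adjusted p = 5.59e-05 and 0.000493). SLC2A6, a lysosomal hexose transporter, was at 2.77, 2.76 and 2.67 in parental cells, 4.52, 5.09 and 4.63 in TalaR-M cells and 2.42, 2.65 and 1.86 in TalaR-DF cells. It was highest in TalaR-M cells, at 2.02 above parental and 2.44 above TalaR-DF cells (adjusted p = 0.000522 and 0.00044). TIGAR, a phosphatase that lowers the activator of phosphofructokinase, rose by 1.53 in TalaR-M and by 1.24 in TalaR-DF cells (adjusted p = 0.000183 and 0.000774). The glycogen branching enzyme GBE1 and the kinase PDK4 fell by 1.75 and 2.15 in TalaR-M cells (adjusted p = 0.0407 and 0.0151). TalaR-M replicate 2 was the lowest of the 9 libraries for both, and without it the log2 fold changes were -1.05 for GBE1 and -1.47 for PDK4.

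Of 14 further HIF pathway components, 13 were tested and 3 changed in TalaR-M cells (2 fell and 1 rose, beside 13.2% and 10.3% of all genes), a share near that of all genes. The fit that left out TalaR-M replicate 2 had 6 falls and 4 rises, beside 30% and 30.2% of all genes. ARNT, the partner of the HIF alpha subunits, was at 6.66, 6.55 and 6.54 log2 CPM in parental cells, 5.55, 3.86 and 5.61 in TalaR-M cells and 5.83, 5.95 and 5.94 in TalaR-DF cells, and fell by 1.57 in TalaR-M cells (adjusted p = 0.0283), which became a log2 fold change of -1.0 when TalaR-M replicate 2 was left out. Its relative ARNT2 was at 1.85, 1.37 and 1.6 in parental cells, 4.93, 3.50 and 4.78 in TalaR-M cells and 2.46, 2.17 and 2.58 in TalaR-DF cells. ARNT2 was highest in TalaR-M cells without overlap, 2.80 above parental cells and 2.00 above TalaR-DF cells on the log2 scale (adjusted p = 0.000888 and 0.00974). OS9, an endoplasmic reticulum lectin, fell by 0.64 in TalaR-M cells and by 0.83 in TalaR-DF cells (adjusted p = 0.0177 and 0.00659). CITED2, which competes with HIF for its coactivator, fell by 0.95 in TalaR-DF cells (adjusted p = 0.0349). VHL, which marks the alpha subunits for destruction, changed by -1.03 in TalaR-M and by 0.06 in TalaR-DF cells and passed neither test (adjusted p = 0.0995 and 0.958). Once TalaR-M replicate 2 was left out, it fell by 0.48 in TalaR-M cells (adjusted p = 6.82e-05). HIF3A was at 0 in all 9 libraries.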

How the data were processed

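The RNAseq libraries of PSN1 cells were used for 3 groups (parental, TalaR-M and TalaR-DF), with 3 libraries each. The authors deposited log2 values of the CPM of each gene with a small prior count, scaled to the library, with values below 0 written as 0. This was read from the values, whose unlogged steps were whole reads for 100% of values under 50 CPM (within 0.02 of a read). At 1 CPM a library held between 6.97 and 14.5 reads, so lower levels cannot be told from 0. The submitters' processing notes name the hg38 build, and the aligner, counter and annotation are not given in the sources used here. The libraries were stranded and made from poly(A) RNA. Columns marked as maintained were read as TalaR-M and those marked as withdrawn as TalaR-DF. The other cell lines and treatments were not analysed here.

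Groups were tested in limma (version 3.58.1, R version 4.3.3), in a single model of the 3 groups with a mean-variance trend, over the 12471 genes above 1 CPM in at least 3 libraries, with no added pseudocount. A gene counted as changed when its adjusted p (Benjamini-Hochberg) was under 0.05, and a 2-fold call also asked for a log2 fold change past 1 in size. Errors of fold changes are standard errors. An exact permutation test of 3 against 3 libraries cannot give a p under 0.1 and was not used. The test was also run on simulated data, but the outcome is not given here and no result rests on it. Library values are given for genes past the 2-fold call in any comparison, with or without TalaR-M replicate 2, for HIF1A, EPAS1, EGLN1 and EGLN3, and for the enzyme families compared. From each further list at most 5 of the genes with the largest called changes have values, and VHL and the other genes named there were added after their values were seen. The members and lists were chosen with earlier results of these data known. Positions and transcript lengths came from GENCODE on GRCh38, matched by symbol for 88.3% of the genes, and promoter windows from RefSeq on GRCh38.p14. C12orf5, ERO1L, TCEB2 and TCEB1 in the table were read as TIGAR, ERO1A, ELOB and ELOC. The alternatives tried were pseudocounts (1 or 8 CPM), no filter or one at 5 CPM, rescaling by the median ratio, no variance trend, array weights, a replicate block, a fit of only the groups compared, the 2-fold rule, and leaving out each library. Leaving out TalaR-M replicate 2 together with the 2-fold rule was added after seeing the data. Plots were made in Python 3.11.15 (matplotlib 3.10.9). The values of some marker genes are not reported here.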

Additional observations from a re-analysis of the deposited data

How the results depend on the processing

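The counts of changed genes among the 40 (24 for TalaR-M against parental, 16 for TalaR-DF against parental and 10 for TalaR-M against TalaR-DF) stayed within 1.5 times of these under added pseudocounts, other filters on low values, no variance trend and rescaling by the median ratio. Rescaling gave 22, 19 and 13, and moved the median of all genes from -0.09 to 0.02 for TalaR-M against parental. Array weights gave 34, 34 and 29. A fit of only the groups compared gave 15, 35 and 5, with fewer libraries behind the spread. Asking for a 2-fold change gave 18, 8 and 7, and the same rule without TalaR-M replicate 2 gave 14, 10 and 7. Leaving out 1 library at a time gave 17 to 33, 10 to 34 and 5 to 30, with the highest counts without TalaR-M replicate 2. The cause of these shifts was not tested. With the replicate number as a block the counts were 21, 14 and 7. Deviations from the group means correlated at -0.311 to 0.158 between same-numbered libraries and at -0.400 to 0.369 between others. With 3 libraries a group and TalaR-M replicate 2 apart from its own, these values cannot exclude that same-numbered libraries were handled together. In the sample titles they share only a number. No called change of any of the 40 genes turned direction under an alternative. Depth limits LDHB, ANKRD37 and NDUFA4L2, for which a value of 0 stands for anything up to 1 CPM.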
